A study of Mus musculus with 6 samples.

Results

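The heat shock proteins, chaperones and co-chaperones were taken from the authors' deposited table by gene symbol: names that begin with Hsp (without the proteoglycan gene Hspg2 and pseudogenes), numbered Dnaja, Dnajb and Dnajc genes, numbered Cct genes, and Bag1 to Bag6. The rule found 89 of 36699 rows, of which the authors tested 79. The cells were A2Lox.cre, a mouse embryonic stem cell line made for inserting a doxycycline-inducible transgene, here Flag-Lef1. They had been grown on mouse embryonic fibroblasts, were freed of these feeders, and formed embryoid bodies, suspended cell clumps in which differentiation begins. At day 3, RNA was sequenced from 3 libraries without doxycycline (minus_Dox, numbered 1, 3 and 4) and from 3 libraries given it for the last 24 h (plus_Dox, numbered 1, 2 and 3). Both groups carry the transgene and the inducible system. The study has no doxycycline control without the Flag-Lef1 transgene among the samples used here, so an effect of the drug and an effect of Lef1 cannot be told apart. Lef1 binds DNA and passes Wnt signals from beta-catenin to target genes.

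The authors' deposited table gives 1 FPKM value per gene and group, that is, sequenced fragments per length of transcript and per size of library, so levels can be compared between genes. The table holds no values of single libraries, and no SD between libraries or overlap of groups can be given. Each standard error (SE) was obtained by dividing the log2 fold by the authors' test statistic, and a call is a q-value of at most 0.05 in their test over all tested rows. Separate cultures are not stated for the libraries, so the spread behind the test may be technical.

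Chaperones help other proteins reach and keep their folded shape. Hsp70 proteins bind exposed stretches of unfolded chains in a cycle driven by ATP: J-domain proteins (the Dnaj genes) bring in the client and start hydrolysis, and nucleotide exchange factors such as the Bag proteins and Hsp110 release it. Hsp90 acts later, on nearly folded kinases and receptors, while Hsp60 with its lid Hsp10 folds proteins inside mitochondria and the TRiC ring, built from the Cct subunits, folds actin and tubulin in the cytosol. Small heat shock proteins hold unfolded chains without using ATP. Heat shock factor Hsf1 switches on many of these genes under stress in the cytosol, and the unfolded protein response does so for the chaperones of the endoplasmic reticulum (ER). Embryonic stem cells are known for a high level of many chaperones.

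Promoter sequences are shown because several members carry well-known stress elements, against which their fold changes can be read. They are RefSeq windows of build GRCm38.p6 that run from 250 bases before to 50 bases after a transcription start, and 73 of the 89 members had at least 1 (93 windows). Both strands were searched for the heat shock element cores GAANNTTC and TTCNNGAA, for the ER stress element (CCAAT, a gap of 9 bases, then CCACG), and for the TCF/LEF cores CTTTGAA and CTTTGAT. Matches overlap in a run of heat shock cores. The stretches below lie before the start site, and capitals mark the matched bases.
Hspb1 (chr5:135887789-135887848, plus strand): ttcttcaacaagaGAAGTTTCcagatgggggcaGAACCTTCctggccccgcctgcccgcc
Hspa1a (chr17:34972217-34972276, minus strand): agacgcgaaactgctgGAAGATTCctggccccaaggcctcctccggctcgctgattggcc
Hspa1b (chr17:34959299-34959358, minus strand): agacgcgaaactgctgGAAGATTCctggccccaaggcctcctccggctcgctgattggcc
Hsph1 (chr5:149636337-149636396, minus strand): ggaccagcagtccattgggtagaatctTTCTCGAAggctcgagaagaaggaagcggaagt
Hspe1 (chr1:55088038-55088097, plus strand): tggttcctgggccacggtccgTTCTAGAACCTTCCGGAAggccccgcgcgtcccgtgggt
Hspa5 (chr2:34772000-34772059, plus strand): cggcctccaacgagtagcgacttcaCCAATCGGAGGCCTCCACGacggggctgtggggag
Hsp90b1 (chr10:86705525-86705664, minus strand): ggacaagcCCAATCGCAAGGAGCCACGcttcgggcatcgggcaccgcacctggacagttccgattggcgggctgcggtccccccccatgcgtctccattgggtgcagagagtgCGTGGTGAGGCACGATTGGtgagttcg
Dnajc3 (chr14:118937812-118937871, plus strand): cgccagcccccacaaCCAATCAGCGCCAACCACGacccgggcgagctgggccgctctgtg
Dnajc4 (chr19:6992633-6992692, minus strand): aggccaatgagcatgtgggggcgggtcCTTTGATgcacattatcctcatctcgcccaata

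The Hspa1a and Hspa1b stretches differ at 0 of 60 bases. The Hspe1 stretch also lies in 1 window of Hspd1 on the other strand, since the mitochondrial pair is transcribed in opposite directions from a shared region, and it holds 3 overlapping heat shock cores. A heat shock core was found in 28.8% of the 73 members with a window and in 17.0% of all 27025 genes in the RefSeq set. Among the classic heat-inducible members the count was 8 of 10 (80.0%): Bag3, Dnaja1, Hspa1a, Hspa1b, Hspb1, Hspd1, Hspe1 and Hsph1. That list was made by known heat induction, and it counts Hspa1a and Hspa1b, and Hspd1 and Hspe1, separately despite their shared stretches. The ER stress element was found in 3 members, Hspa5, Hsp90b1 and Dnajc3 (4.11%), against 0.137% of all genes. A TCF/LEF core was found in 6.85% of members and 9.88% of all genes. The 5 members were Cct5, Cct8, Dnajc4, Hspb6 and Hspb8. These are letter matches in a short window and not measured binding sites.

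**Figure D1:**
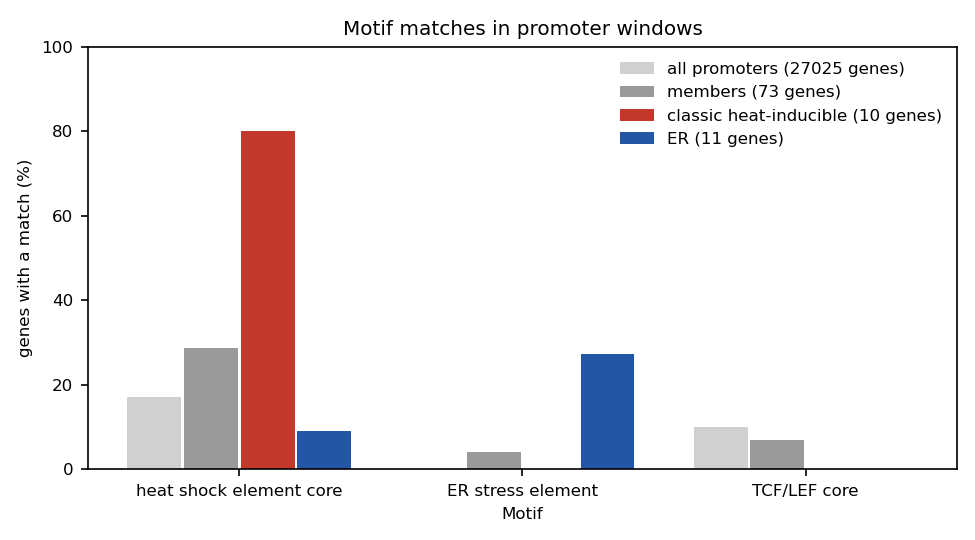
Share of genes with at least 1 match in a promoter window (vertical axis, %), for 3 motifs (horizontal axis) and for all RefSeq genes, all members and the heat-inducible and ER members. Heat shock cores stand at 80.0% of the 10 heat-inducible genes and 17.0% of all genes, and the ER stress element at 3 of 11 ER members (27.3%).

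The labels were checked first. Per the authors' deposited table, Lef1 rose from 7.56 to 51.0 FPKM (log2 fold of 2.75 with SE 0.19). Of the 9 stem cell and epiblast markers, 8 were tested, with 28.6 to 820 FPKM in minus_Dox per the authors' deposited table. Of these, 3 rose and 1 fell (50% called, against 12.2% of all tested rows and 18.9% of those at 5 FPKM or more). The rises were in Nanog (28.6 to 110 FPKM), Dppa5a and Utf1, and the fall in Sox2 (56.2 to 30.9 FPKM), per the authors' deposited table. With a trend on GC content and length over all genes removed, Nanog (log2 fold 1.86) and Sox2 (-1.14) still passed. Dppa5a (0.09) and Utf1 (-0.27) did not. Dnmt3b is listed at 0 in minus_Dox and marked as too high in depth. Feeder fibroblast markers were low: the 7 tested of 9 had 0.341 to 11.9 FPKM in minus_Dox per the authors' deposited table and 0 calls (2 at an unadjusted p of 0.05 in the authors' test). The 4 primitive endoderm markers had 2.45 to 11.4 FPKM in minus_Dox per the authors' deposited table, and 1 of them rose, Sox17 (2.45 to 3.91 FPKM, log2 fold 0.67, q = 0.044). After trend removal Sox17 did not pass and Gata6 was lower (log2 fold -0.75, q = 0.018). The part of these markers' cells in the results on chaperones was not tested. The blood markers Hba-a1, Hbb-b1 and Ptprc were at or near 0. Because these are bulk samples, fewer cells of a type and less RNA per cell cannot be told apart.

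Few of the chaperone genes passed the test. Rises numbered 5 and falls 2 among the 79 tested members, 72 did not pass, and the share called was 8.86%, against 12.2% of all 18114 tested rows. Rises made up 8.98% and falls 3.22% of all tested rows. The rises were in the small heat shock protein genes Hspb1 and Hspb2, in Hspbp1, and in the J-domain protein genes Dnajc4 and Dnajc17, and the falls were in Dnajb9 and Dnajc13. The median log2 fold of the members was 0.19, with 54 above 0 and 25 below, and that of all tested rows was 0.20. At an unadjusted p of 0.05 in the authors' test, 23 members (29.1%) were different, against 23.3% of all tested rows. At 1 FPKM or more in the higher group these shares were 32.4% and 30.2%, and the shares called were 9.86% and 16.5%. The implied 95% interval of 53 members (67.1%) lay inside a 2-fold change in either direction, which was so for 8015 of the 17830 tested rows with a finite fold. At 1 FPKM or more it was so for 73.2% of members and 60.0% of all rows, and at 5 FPKM or more for 78.2% and 66.2%. Of the 18 members that reached 100 FPKM in the higher group, 17 had such an interval and 0 were called (3 at an unadjusted p of 0.05). Of all 1034 tested rows that reached 100 FPKM, 35.8% were called and 68.8% had such an interval, and the median log2 fold was 0.42, against 0.15 for the 18 members. Those rows had a median transcript length of 1600 nt and GC content of 51.3%, against 2432 nt and 46.8% for the 18 members. With a trend on GC content and length over all genes removed, the medians were 0.042 and 0.0035. On that scale 34 of those rows passed as higher and 6 as lower, and 0 of the 18 members passed. The difference between the members and the other rows was not tested.

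**Figure D2:**
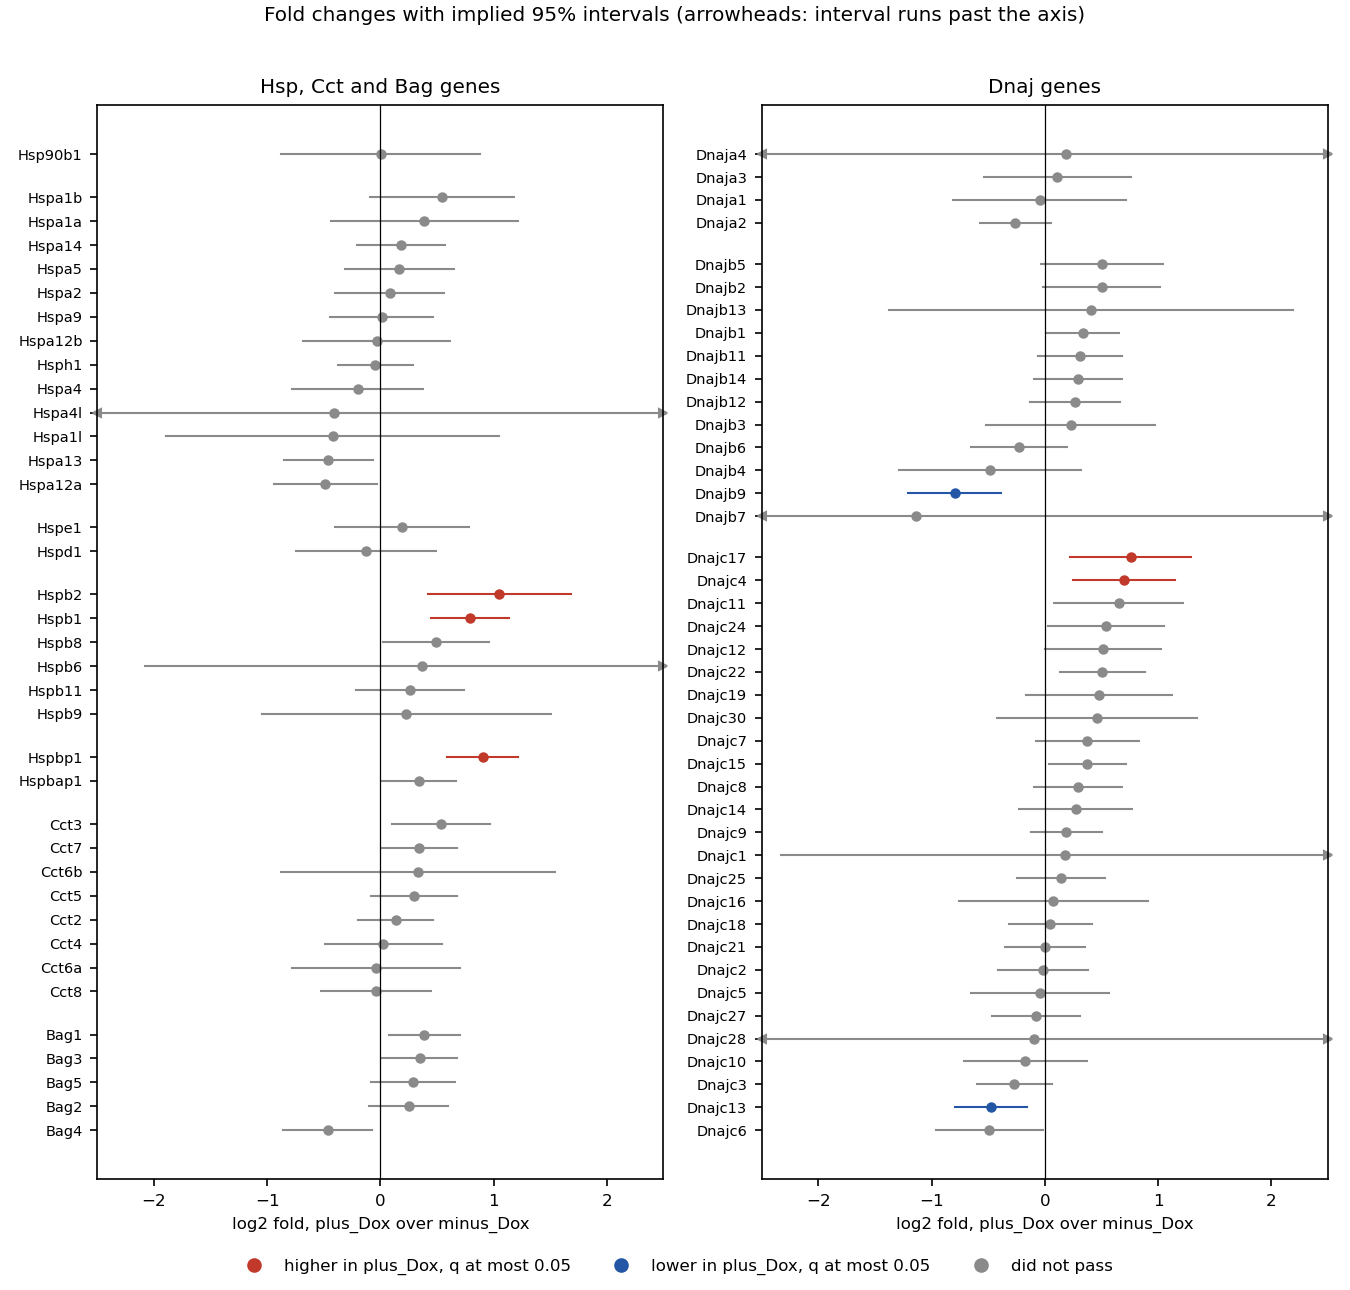
Log2 fold of plus_Dox over minus_Dox (horizontal axis) for each of 79 tested members, ordered within family (vertical axis), with points as the deposited fold and bars as the implied 95% interval. Hspb2, Hspb1, Hspbp1, Dnajc17 and Dnajc4 stand to the right of 0 and Dnajb9 and Dnajc13 to the left; for most other members the bar crosses 0.

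The other 10 members had no test. Cytosolic Hsp90 (Hsp90aa1 and Hsp90ab1) and the constitutive Hsp70 Hspa8 are marked in the authors' deposited table as too high in depth and listed at 0 in both groups, so their levels are not given by the table and are not read as absence. The test failed for Bag6, a chaperone of membrane protein delivery, which the authors' deposited table lists at 71.4 and 97.7 FPKM. The other 6 untested members (Cct8l1, Dnajb8, Dnajc5b, Dnajc5g, Hspb3 and Hspb7) were at 0.0185 FPKM or less in both groups per the authors' deposited table.

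The ER and mitochondrial forms of Hsp70 and Hsp90 showed no call, while cytosolic Hspa8, Hsp90aa1 and Hsp90ab1 had no test. Hsp90b1, the ER form of Hsp90 also called Grp94, stood at 317 and 318 FPKM in minus_Dox and plus_Dox per the authors' deposited table (log2 fold 0.00, 95% interval -0.87 to 0.88). Hspa5, the ER Hsp70 BiP, stood at 233 and 261 FPKM per the authors' deposited table (log2 fold 0.17, -0.31 to 0.65). Hspa9, the mitochondrial Hsp70 mortalin, was listed at 179 and 181 FPKM per the authors' deposited table (log2 fold 0.01, -0.44 to 0.47). The intervals of these 3 compartment-specific members lay within a 2-fold change, and their levels in each group lay between 179 and 318 FPKM. Trap1, the mitochondrial Hsp90 outside the name rule, had 67.9 and 88.6 FPKM per the authors' deposited table (log2 fold 0.38, 95% interval 0.02 to 0.75, q = 0.18). Hspa13, another ER member of the Hsp70 family, is given below.

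The stress-inducible Hsp70 genes were close to silent. Per the authors' deposited table, Hspa1b had 0.424 and 0.619 FPKM (log2 fold of 0.54 with SE 0.33, q = 0.32). Its near-identical neighbour Hspa1a had 0.135 and 0.176 FPKM per the authors' deposited table (log2 fold of 0.39 with SE 0.42, q = 0.69). Reads from the 2 copies can be shared, so the values of each are uncertain, and their sum was 0.559 and 0.795 FPKM. Both lie more than 100-fold under Hspa5 in level in each group.

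Among the other Hsp70 genes, Hspa4 (Apg-2, an Hsp110 that exchanges nucleotide) had 207 and 180.0 FPKM per the authors' deposited table (log2 fold of -0.20 with SE 0.29), and Hsph1 (Hsp105) had 47.3 and 45.9 FPKM (log2 fold of -0.04 with SE 0.17). Hspa14, an Hsp70 that works at the ribosome, had 71.3 and 80.8 FPKM per the authors' deposited table (log2 fold of 0.18 with SE 0.20). The lowest folds of the family at 1 FPKM or more were in Hspa12a (1.08 to 0.773 FPKM, log2 fold -0.49, q = 0.17) and the ER member Hspa13 (5.89 to 4.29 FPKM, log2 fold -0.46, q = 0.13), again from the authors' deposited table. Of 13 tested Hsp70 and Hsp110 genes, 0 were called, 2 had an unadjusted p under 0.05 in the authors' test, and the median log2 fold was -0.03. Hspa4l had 3.44 and 2.59 FPKM per the authors' deposited table, with an SE of 1.76 that leaves its fold (-0.41 in log2) unresolved. The levels of the family ran from 0.135 to 233 FPKM in minus_Dox.

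**Figure D3:**
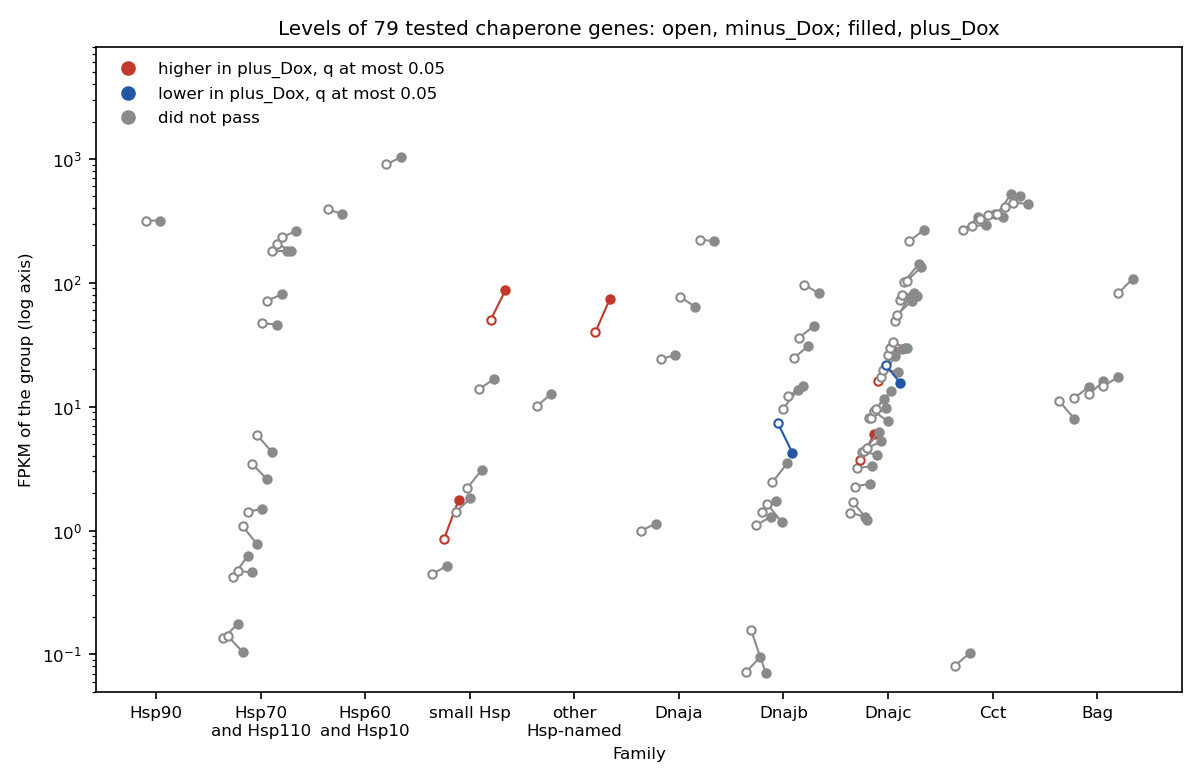
FPKM of the group on a log axis (vertical) for the 79 tested members by family (horizontal), open circles for minus_Dox and filled circles for plus_Dox, joined per gene and coloured by call. Levels run from under 0.1 FPKM to 1031 FPKM (Hspe1 in plus_Dox), and most lines are nearly flat on this scale.

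The mitochondrial folding chamber was abundant. The authors' deposited table gives Hspe1 (Hsp10, the lid) 903 and 1031 FPKM, the highest level of any tested member (log2 fold of 0.19 with SE 0.30, q = 0.83). Hspd1 (Hsp60, the barrel) had 391 and 359 FPKM per the authors' deposited table (log2 fold of -0.13 with SE 0.32, q = 0.93). The ratio of Hspe1 to Hspd1 was 2.31 in minus_Dox and 2.88 in plus_Dox, without a test of the difference. After trend removal the log2 folds were -0.33 for Hspe1 and -0.22 for Hspd1, so the ratio was not higher in plus_Dox on that scale. Neither gene was called, and the 2 rows carry the same locus in the table, so reads between them may be uncertain. Of all 9 mitochondrial members, 0 were called and 2 had an unadjusted p under 0.05 in the authors' test. These were Dnajc11 and Dnajc15 (named after their values were seen), at log2 folds of 0.65 and 0.38.

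Of the 6 tested genes with a numbered Hspb name, grouped here as small Hsp by name alone, 2 rose and none fell. Hspb1 (Hsp25 in mouse, an actin-protecting holdase) rose from 50.3 to 87.0 FPKM per the authors' deposited table, a 1.73-fold rise (log2 fold of 0.79 with SE 0.17, q = 0.00027). Its row covers chr5:136363788-136365433 in mm9, the build in the submitters' processing notes. Hspb2, a muscle form, rose 2.07-fold but at a low level, from 0.849 to 1.76 FPKM per the authors' deposited table (log2 fold of 1.05 with SE 0.32, q = 0.015, chr9:50559176-50560459 in mm9). The gene next to it, Cryab (alpha-B crystallin, itself a small heat shock protein outside the name rule and chosen after its value was seen), had 1.67 and 2.70 FPKM per the authors' deposited table (log2 fold of 0.70 with SE 0.34, q = 0.18). The remaining tested members did not pass: Hspb8 (log2 fold 0.49), Hspb6 (0.37), Hspb11 (0.26) and Hspb9 (0.23) per the authors' deposited table. All 6 tested genes of this group had a fold above 0, with a median of 0.43 in log2. The implied 95% intervals of Hspb6, Hspb9 and Hspb11 crossed 0, with SEs of 1.25, 0.65 and 0.24. Across the 6 genes the median transcript GC content was 57.5% and the median length 852 nt, against 50.3% and 2640 nt over all tested rows.

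Neither rise passed on a scale that takes transcript composition into account. When a smooth trend on GC content and length over all genes was removed (q here adjusted by Benjamini-Hochberg over all rows), the log2 fold was 0.03 for Hspb1 (GC content 61.7%, 930 nt) and 0.30 for Hspb2 (59.6%, 773 nt), with q = 1.00 for each. The family median was then 0.05.

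Hspbp1, a nucleotide exchange factor that can also inhibit Hsp70, had the lowest q of all members. It rose from 39.8 to 74.4 FPKM per the authors' deposited table, or 1.87-fold (log2 fold of 0.90 with SE 0.16, q = 2.3e-06, chr7:4612122-4636565 in mm9). Its transcript has a GC content of 59.9%, and its log2 fold after trend removal was 0.26 (q = 0.79). The other gene of the Hsp-named remainder, Hspbap1, which binds small heat shock protein, had 10.1 and 12.7 FPKM per the authors' deposited table (log2 fold of 0.34 with SE 0.17, q = 0.18).

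J-domain proteins are the largest group, with 45 members and 42 tested: 2 rose, 2 fell and 38 did not pass, and the median log2 fold was 0.19. The 4 Dnaja genes, the general-purpose J proteins, showed 0 calls (0 at an unadjusted p of 0.05 in the authors' test). Dnaja1, the most abundant, had 223 and 216 FPKM per the authors' deposited table (log2 fold of -0.04 with SE 0.39). Dnaja2 had 76.8 and 64.0 FPKM per the authors' deposited table (log2 fold of -0.26 with SE 0.16, q = 0.34). The mitochondrial Dnaja3 is measured only in a row joined with Vasn (24.2 and 26.1 FPKM per the authors' deposited table).

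In the Dnajb family 1 of 12 tested genes fell and none rose. Dnajb9 (ERdj4, a J protein of the ER that is known as a target of the unfolded protein response) fell from 7.37 to 4.24 FPKM per the authors' deposited table (log2 fold of -0.80 with SE 0.21, q = 0.0033, chr12:45306883-45311055 in mm9). After trend removal its log2 fold was -0.51 (q = 0.30). The heat-inducible Dnajb1 (Hsp40) had 24.6 and 31.0 FPKM per the authors' deposited table (log2 fold of 0.33 with SE 0.17, q = 0.19). Dnajb6, which keeps aggregation-prone proteins soluble, was the most abundant at 96.3 and 82.1 FPKM per the authors' deposited table (log2 fold of -0.23 with SE 0.22). Dnajb11 (ERdj3), with Hspa5 as partner, had 36.0 and 44.6 FPKM per the authors' deposited table (log2 fold of 0.31 with SE 0.19). Dnajb5 (log2 fold 0.51, q = 0.25) had the highest fold of the family at 1 FPKM or more. Dnajb7 and Dnajb13 stayed under 0.2 FPKM in both groups.

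Dnajc proteins have varied tasks, and 3 of 26 were called. Dnajc17, a nuclear J protein with an RNA-binding domain, rose from 16.0 to 27.0 FPKM per the authors' deposited table (log2 fold of 0.76 with SE 0.27, q = 0.045, chr2:118998235-119042785 in mm9). Its row overlaps those of Zfyve19, Gm14137 and Gm14138, so its reads are uncertain. Of all 89 members, 35 overlap at least 1 other row, among them Dnaja1, Dnajc7 and Dnajc19, and their levels carry the same limit. Dnajc4 rose from 3.69 to 5.99 FPKM per the authors' deposited table (log2 fold of 0.70 with SE 0.23, q = 0.024, chr19:7062400-7067008 in mm9). Its window holds a TCF/LEF core 83 bases before the start, which was found in 1 of the 6 called members with a window. Dnajc13 (RME-8, an endosomal J protein) fell from 21.7 to 15.6 FPKM per the authors' deposited table (log2 fold of -0.48 with SE 0.16, q = 0.033, chr9:104053926-104165260 in mm9). Dnajc17 and Dnajc4 have short GC-rich transcripts (1008 nt and 54.6%, 1074 nt and 57.4%), and Dnajc13 a long one (8012 nt, 45.3%). Their log2 folds after trend removal were 0.15, 0.02 and -0.28, and none passed (adjusted values, q, of 1.00, 1.00 and 0.71).

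Among the Dnajc genes that did not pass, Dnajc22 was the nearest to the threshold (q = 0.059), with 8.11 and 11.6 FPKM per the authors' deposited table (log2 fold of 0.51 with SE 0.19). Dnajc11, a protein of the mitochondrial inner membrane organising system, had 49.1 and 77.1 FPKM per the authors' deposited table (log2 fold of 0.65 with SE 0.29, q = 0.14). Dnajc19 and Dnajc15, J proteins of the mitochondrial import motor, had log2 folds of 0.48 (SE 0.33, q = 0.42) and 0.38 (SE 0.17, q = 0.15) per the authors' deposited table. The most abundant was Dnajc8, tied to splicing, at 216 and 265 FPKM per the authors' deposited table. Dnajc19 (102 and 142 FPKM) and Dnajc7, which holds clients between Hsp70 and Hsp90 (103 and 134 FPKM), came next per the authors' deposited table, and their order differed between the groups. The ribosome-bound Dnajc2 (79.2 and 78.3 FPKM) and Dnajc21 (29.7 and 29.7 FPKM) differed by no more than 0.02 in log2 per the authors' deposited table, with intervals of -0.42 to 0.39 and -0.35 to 0.35. Dnajc6 (auxilin, which uncoats clathrin vesicles) was the lowest fold of the family at -0.49 (q = 0.20), per the authors' deposited table.

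The TRiC ring was expressed as an even set. It is built from 8 different subunits, 7 of which carry the Cct name here, with Tcp1 as the other. In minus_Dox they lay between 266 FPKM (Cct7) and 444 FPKM (Cct8) per the authors' deposited table, a 1.67-fold range, with a median of 354 FPKM. In plus_Dox they lay between 292 FPKM (Cct4) and 520 FPKM (Cct3) per the authors' deposited table, a 1.78-fold range, with a median of 372 FPKM. None was called, and 2 genes had an unadjusted p under 0.05 in the authors' test. These were Cct3 (358 and 520 FPKM, log2 fold 0.54, SE 0.22, q = 0.092) and Cct7 (266 and 337 FPKM, log2 fold 0.34, SE 0.17, q = 0.20) per the authors' deposited table. Cct8, Cct6a, Tcp1 and Cct4 had log2 folds from -0.04 to 0.03, and the intervals of all 8 ring subunits stayed inside a 2-fold change. Cct6b, a testis form of the same subunit as Cct6a, had 0.0811 and 0.102 FPKM per the authors' deposited table.

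**Figure D4:**
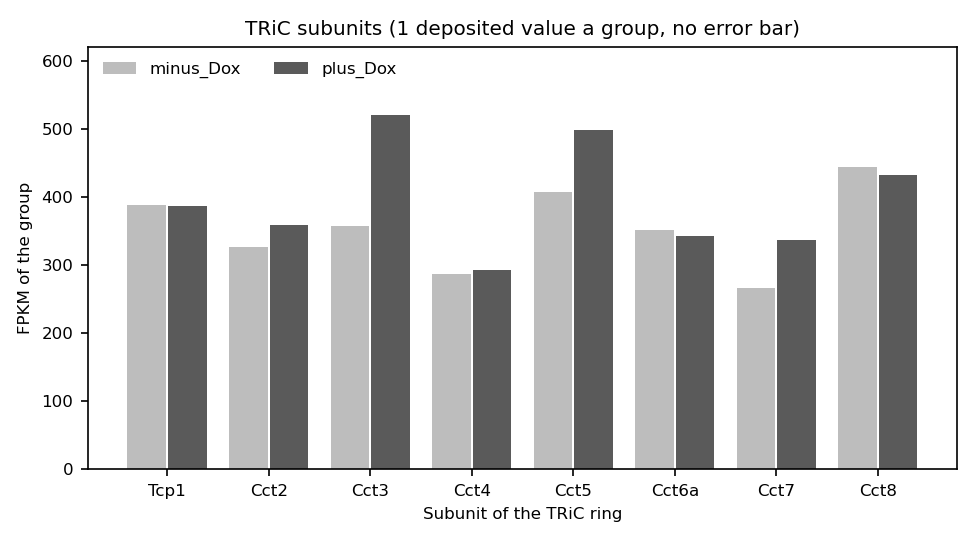
FPKM of the group (vertical axis, from 0) for the 8 subunits of the TRiC ring (horizontal axis), light bars for minus_Dox and dark bars for plus_Dox, 1 deposited value each. Bars run from 266 to 520 FPKM, and the gap within a pair is widest for Cct3.

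The Bag co-chaperones, which release clients from Hsp70, showed 0 calls among 5 tested, with 3 at an unadjusted p of 0.05 in the authors' test. Bag1 had 82.1 and 107 FPKM per the authors' deposited table (log2 fold of 0.39 with SE 0.16, q = 0.095). Bag3, the stress-inducible member that steers clients to autophagy, had 12.6 and 16.0 FPKM per the authors' deposited table (log2 fold of 0.35 with SE 0.17, q = 0.19). Bag4 had the only fold below 0 among the 5, from 11.1 to 8.02 FPKM per the authors' deposited table (log2 fold of -0.46 with SE 0.20, q = 0.12). Bag2 (0.25) and Bag5 (0.29) had similar log2 folds per the authors' deposited table.

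The members were also read by stress programme and place rather than family. The share called was 10% of the tested heat-inducible members and 7.69% of the ER members, against 12.2% of all tested rows. Lists this small cannot tell such shares apart. Of 12 classic heat-inducible genes, 10 were tested, Hspb1 rose, none fell, and the median log2 fold was 0.26. Of the 21 members with a heat shock core in a promoter window, 18 were tested, 1 rose (Hspb1) and none fell, with a median log2 fold of 0.16. The 49 tested members with a window and no core had 5 calls and a median of 0.23. Of the 5 members with a TCF/LEF core, all tested, 1 rose (Dnajc4) and the median log2 fold was 0.37, while the 62 tested members with a window and no such core had 5 calls and a median of 0.19. The 0.37 is the fold of Hspb6, which its SE of 1.25 leaves unresolved. After trend removal the log2 folds of the 5 lay between -0.22 (Hspb6) and 0.07 (Hspb8). A difference by TCF/LEF core was not tested. Of 13 ER members, all tested, Dnajb9 fell and none rose, with a median log2 fold of 0.08. The 3 with an ER stress element, Hspa5, Hsp90b1 and Dnajc3, had log2 folds of 0.17, 0.00 and -0.27 per the authors' deposited table, with 0 calls (0 at an unadjusted p of 0.05 in the authors' test).

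Genes of the same pathways outside the name rule were read from 6 lists with 82 tested rows, of which 12 rose and 5 fell (20.7% called, against 12.2% of all tested rows), with a median log2 fold of 0.28. At 5 FPKM or more, which 73 of them reached, the shares were 23.3% and 18.9%. Among regulators of heat shock factor, 1 of 5 rose, the Hsf1 inhibitor gene Hsbp1 (62.8 to 92.0 FPKM per the authors' deposited table, log2 fold 0.55, q = 0.0087). It did not pass after trend removal (log2 fold 0.25, q = 0.82) or after median-ratio scaling (0.35, q = 0.17). Hsf1 itself had 19.2 and 25.4 FPKM per the authors' deposited table (log2 fold of 0.41 with SE 0.18, q = 0.14), and Hsf2 had 20.1 and 17.0 FPKM (log2 fold of -0.25 with SE 0.17, q = 0.44).

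Of 24 tested Hsp90 co-chaperone genes, 3 rose and 3 fell. Cdc37, which delivers kinases to Hsp90, rose from 130 to 231 FPKM per the authors' deposited table (log2 fold of 0.83 with SE 0.16, q = 3.1e-05), and Ahsa1, which speeds Hsp90's ATP hydrolysis, from 183 to 284 FPKM (log2 fold of 0.64 with SE 0.16, q = 0.0017). Aarsd1 rose too (log2 fold 0.75, q = 0.018). The falls per the authors' deposited table were in Fnip1 (8.32 to 4.49 FPKM, log2 fold -0.89, q = 3.8e-05), in Fnip2 (log2 fold -0.72, q = 0.039) and in Chordc1 (45.5 to 31.1 FPKM, log2 fold -0.55, q = 0.012). Cdc37 passed after trend removal (log2 fold 0.82, q = 8.3e-05, with 7851 nt as the length of its longest annotated transcript). So did Sugt1, an Hsp90 partner not called as deposited (log2 fold 0.18, then 0.63, q = 0.0065, 7392 nt), and the other calls of this list did not. These lengths need not be those of the forms expressed in these cells. The most abundant of the list, Fkbp4 (479 and 604 FPKM, log2 fold 0.33, q = 0.34) and Nudc (291 and 542 FPKM, 0.90, q = 0.084), did not pass per the authors' deposited table.

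Of 13 Hsp70 cofactor genes outside the Dnaj and Bag names, 3 rose. They were Sgta (46.4 to 78.5 FPKM, log2 fold 0.76), Hscb, a mitochondrial J protein for iron-sulphur clusters (8.94 to 15.7 FPKM, 0.81), and Grpel1, the exchange factor of mitochondrial Hsp70 (32.2 to 50.1 FPKM, 0.64), per the authors' deposited table. St13, the most abundant of the list, had 205 and 268 FPKM per the authors' deposited table (log2 fold of 0.39 with SE 0.24, q = 0.36). Of the 3 that rose, Grpel1 alone passed after trend removal (log2 fold 0.59, q = 0.023). In the list of prefoldin and TRiC partners, prefoldin Pfdn1 rose (123 to 187 FPKM, log2 fold 0.60, q = 0.0032) and prefoldin Vbp1 fell (107 to 69.8 FPKM, log2 fold -0.62, q = 0.0063) among 10 tested per the authors' deposited table. These subunits of 1 complex thus had calls in opposite directions, with transcript GC contents of 50.9% and 35.5% and log2 folds after trend removal of 0.16 and -0.05. Pdcl3, a TRiC partner with 33.7 and 45.7 FPKM per the authors' deposited table, missed the threshold (log2 fold 0.44, q = 0.052) and passed after trend removal (0.55, q = 0.037).

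Of 9 genes of mitochondrial protein quality control, 2 rose: the protease subunit gene Clpp (51.3 to 88.7 FPKM, log2 fold 0.79) and the prohibitin gene Phb2 (255 to 376 FPKM, 0.56) per the authors' deposited table. Phb, the partner of Phb2, had 280.0 and 379 FPKM per the authors' deposited table (log2 fold of 0.44 with SE 0.20, q = 0.15). Of 22 tested ER folding genes, Fkbp2 (39.7 to 69.9 FPKM, log2 fold 0.82) and Creld2 (35.4 to 52.2 FPKM, 0.56) rose and the oxidase gene Ero1l fell (15.6 to 9.68 FPKM, -0.69) per the authors' deposited table. None of these 5 calls passed after trend removal. The abundant ER chaperones Calr (324 and 391 FPKM, log2 fold 0.27, SE 0.21) and Pdia3 (206 and 192 FPKM, -0.10, SE 0.21) did not pass per the authors' deposited table. The response regulator Xbp1 had 22.9 and 26.4 FPKM per the authors' deposited table (log2 fold of 0.21 with SE 0.21).

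Across the members, folds followed transcript composition as they did across all genes. Over the 71 members with at least 1 FPKM, Spearman's coefficient of the log2 fold was 0.63 with GC content and -0.55 with length. Over 11869 rows of the whole table it was 0.65 and -0.46. These are correlations across genes measured in the same libraries, and genes are not independent replicates. All 22 members shorter than 2000 nt had a fold above 0 (median log2 fold 0.38, 5 rises), and 12 of the 19 members of 4000 nt or longer had one below 0 (median -0.07, 1 fall). The same classes over the whole table had medians of 0.46 and -0.05. There 3121 short rows were above 0 and 539 below, and 2017 long rows were below 0 and 1648 above. The share called was 22.7% of the short members and 27.5% of all short rows, and 5.26% of the long members and 11.6% of all long rows. With the trend removed, the members' median log2 fold was -0.0014 and none of the 7 deposited calls passed. Dnajc15 (log2 fold 0.61, q = 0.025) and Dnajb14, a J protein of the ER membrane (0.68, q = 0.033), passed instead, against 2.19% of all rows with both properties. Their longest annotated transcripts, 6193 and 9477 nt, set the length used, which need not be the form expressed in these cells. The same limit holds for Cdc37, Sugt1, Grpel1 and Pdcl3 in the other lists.

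**Figure D5:**
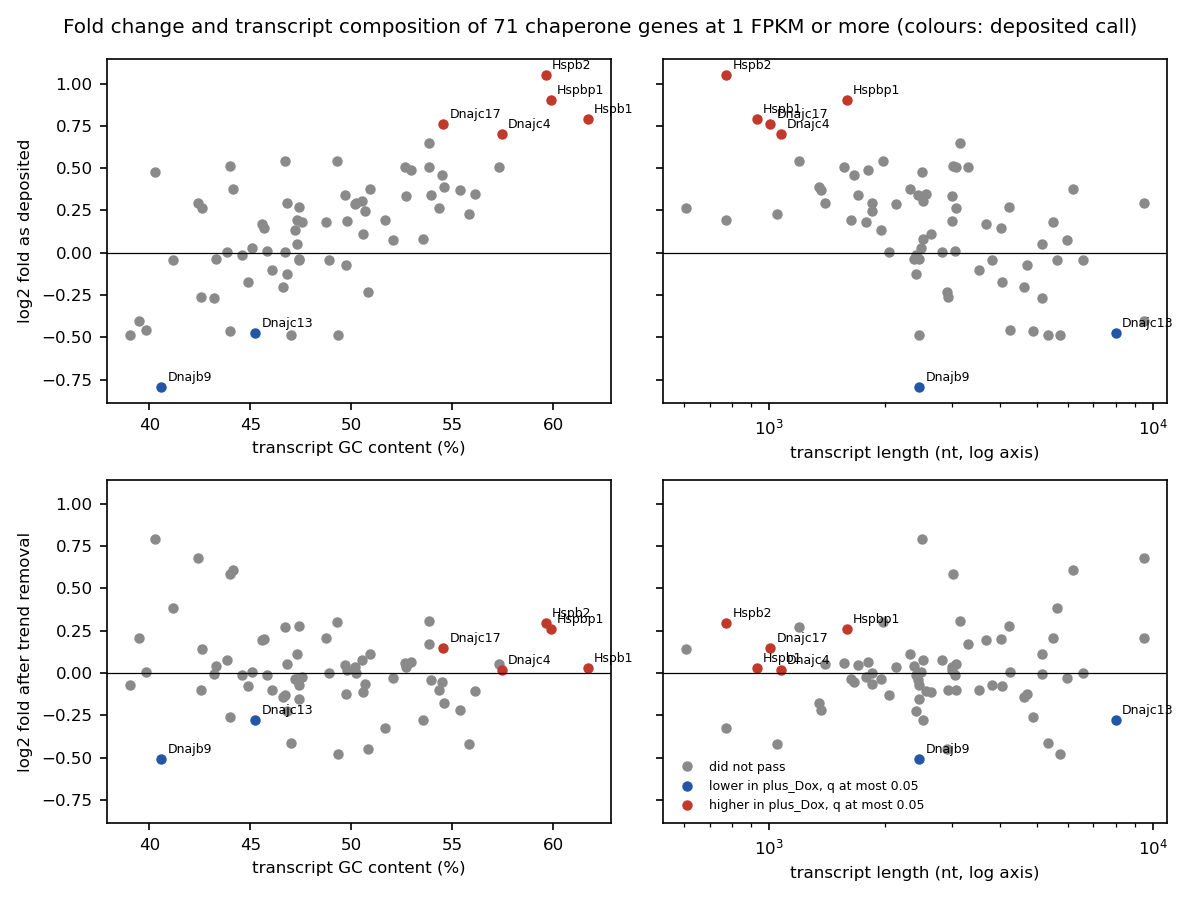
Log2 fold (vertical axes; top, as deposited; bottom, after removal of the trend on GC content and length) against transcript GC content (left) and length on a log axis (right) for 71 members, with colours for the deposited call. As deposited the 5 rises sit at high GC content and short length and the 2 falls at low GC content; below, they lie between -0.51 and 0.30 with the other members.

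The scaling of the 2 groups sets how calls divide into rises and falls. Over 12240 tested rows with at least 1 FPKM, the median log2 fold was 0.20. Subtracting this constant from every gene moves calls from higher to lower by construction. On that scale 2 members were higher and 7 lower, against 5 and 2 as deposited. Of all rows 618 (3.47%) were then higher and 1087 (6.1%) lower, 9.56% in all, against 1626 and 584 as deposited. The 2 still higher were Hspb1 (log2 fold 0.59, q = 0.012) and Hspbp1 (0.70, q = 0.00047), and Dnajb9 (q = 0.00012) and Dnajc13 (log2 fold -0.68, q = 0.0010) remained lower. Bag4 (-0.66), Dnaja2 (-0.46), Dnajc6 (-0.69), Hspa12a (-0.69) and Hspa13 (-0.66) passed only on this scale among the 3 scales used.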

How the data were processed

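RNA from 6 libraries was compared as 2 groups of 3, as the titles label them. Per the submitters' processing notes, Cufflinks 2.0.2 and Cuffdiff, TopHat2 2.0.8 with Bowtie, and Picard were used, and the build was mm9. Settings and the gene annotation are not given in the sources used here. Per the file headers, the deposited table holds 1 FPKM value per group, a log2 fold, a test statistic (a score, opposite in sign to the fold), a p-value and a q-value, all computed by the authors. It holds 0 columns of single libraries, so the authors' own test was used, sequencing depth is unknown and no counting interval was computed. The SE is the fold divided by the statistic, both as absolute values. For 17830 tested rows with a finite fold the p-value was checked to be the normal tail of the statistic.

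Members and lists were chosen with earlier results of these data known. Named genes are all calls, the 2 highest levels and the extreme folds of each family, members of the heat-inducible, ER, mitochondrial and Cct lists, and in other lists the calls and highest levels; not every gene so selected is printed. Genes named outside this rule, among them those that pass only after trend removal, were chosen after their values were seen. Pfdn6 and Spg7 of the lists were not analysed here. Alternatives were q-value thresholds of 0.01 and 0.1, a 2-fold minimum, minima of 1 and 5 FPKM, pseudocounts of 1 and 0.1, median-ratio scaling, and removal of a least-squares trend on natural cubic splines (6 knots) of GC content and log2 length of the longest GENCODE vM21 basic transcript. That trend was set by 11869 rows with at least 1 FPKM and removed from 17001, with normal p-values from the implied SE and Benjamini-Hochberg adjustment over those rows. Properties were matched by symbol for all 89 members and 94.4% of tested rows. The trend step was also run on simulated data, with no outcome given here. Python 3.11.15, numpy 2.4.6, pandas 2.3.3 and scipy 1.17.1 were used.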

Additional observations from a re-analysis of the deposited data

How the results depend on the processing

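The 7 calls among members became 3 at a q-value threshold of 0.01, 1 with a 2-fold minimum (Hspb2) and 2 after trend removal, and stayed within 1.5 times at 0.1 (10), with minima of 1 FPKM (7) and 5 FPKM (6) and after median-ratio scaling (9, 4 of them the same genes in the same direction). The 17 calls of the other lists became 0 with a 2-fold minimum, 10 after median-ratio scaling (4 higher, 6 lower) and 4 after trend removal. Applying the alternatives to those lists was decided after the data were seen. Family medians that moved by more than the median SE of their members were, after trend removal, those of the small Hsp genes (0.048), the other Hsp-named genes (0.15), the Dnajb genes (-0.019) and the Bag genes (-0.10), and, after median-ratio scaling, those of the other Hsp-named genes (0.42) and the Bag genes (0.087). The other 79 values of such counts and medians stayed within these bounds. Single libraries could not be left out, because the table holds group values. No paired analysis was possible because the table has no columns of single libraries. Depth is unknown, and the 3 members too high in depth (Hsp90aa1, Hsp90ab1, Hspa8) could not be compared.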
